A study of Homo sapiens with 6 samples.

Results

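miR-122 is the characteristic microRNA (miRNA) of hepatocytes, and both products of its precursor, hsa-miR-122-5p and hsa-miR-122-3p, are described here in Huh7 cells, a human hepatoma cell line. They were found by name among the 2588 mature human miRNAs of the deposited table, and 2 of 2 were present, both with counts in every library. The samples were Huh7 cells grown in DMEM with serum and transfected for 48 h by Lipofectamine 2000, either with a plasmid that carries hsa_circ_0098181 (overexpression group, 3 samples) or with the control plasmid (control group, 3 samples). hsa_circ_0098181 is a circular RNA made from the SOX5 gene. Both groups therefore share the cell line, the transfection reagent and a plasmid, only 1 cell line was used, and the share of cells that took up the plasmid is not given with the samples. Total RNA was extracted and its small RNAs were sequenced.

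A miRNA precursor is a hairpin that is cut by Drosha and Dicer into a short duplex. One strand, the guide, is loaded into an Argonaute protein and represses messenger RNAs that pair with its seed, bases 2 to 8, while the other strand, the passenger, is mostly degraded. In the liver, miR-122-5p is the guide and the most abundant miRNA, it is transcribed under hepatocyte transcription factors such as HNF4A, it represses genes that the adult liver keeps low, such as ALDOA and SLC7A1, it influences cholesterol metabolism, and hepatitis C virus needs it to replicate. Its loss is frequent in hepatocellular carcinoma, and Huh7 is known as a hepatoma line that has kept it.

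The sequences show which product is which and how close the nearest other miRNA comes, with the seed in capitals. They were taken from RefSeq (GRCh38.p14), in which 2281 of the 2588 names were found.
miR-122-5p: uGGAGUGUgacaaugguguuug
miR-122-3p: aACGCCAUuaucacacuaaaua
miR-3591-5p: uUUAGUGUgauaauggcguuuga
miR-3591-3p: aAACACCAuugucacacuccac
The gene MIR122 (ENSG00000284440.1) lies on the plus strand of chromosome 18 from 58451074 to 58451158 (GRCh38), within exon 2 of the long non-coding host gene MIR122HG (58446275 to 58453766), which has 2 exons. miR-122-5p occupies bases 15 to 36 and miR-122-3p bases 51 to 72 of the hairpin of 85 bases, with 14 bases between them. In the structure predicted by RNAfold, 17 base pairs joined the arms. No other mature miRNA of the RefSeq table shares the seed of miR-122-5p (0) or that of miR-122-3p (0). The closest mature sequence to miR-122-5p was miR-3591-5p, at an edit distance of 5, and the closest to miR-122-3p was miR-3591-3p, at a distance of 7. Both come from MIR3591, which is annotated on the opposite strand of the same locus (58451080 to 58451152).

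The 6 libraries held 7144798 to 10786295 counts, and the authors' TPM is the count for each 1000000 counts of the library. Within each group, the libraries were further apart than counting error allows, with a chi-square per degree of freedom of 18.2 to 157 for the 6 pairs, and the 2 pairs with control replicate 3 had the highest values, 121 and 157. Values per library are given below in the order of replicates 1, 2 and 3. Nothing states that the samples came from separate cultures, so the p-values measure the spread between these samples, which may be technical. The other liver-enriched miRNAs (miR-192-5p, miR-194-5p, miR-215-5p, miR-148a-3p and miR-885-5p) summed to 94022 to 101156 CPM (counts for each 1000000) in the overexpression group and 97324 to 110825 CPM in the control group. Of the lists for other lineages, the 6 blood cell miRNAs summed to 13.3 to 14.8 CPM with hsa_circ_0098181. With the control plasmid they summed to 17.2 to 19.5 CPM, with no overlap. The levels of 15.4% of the 552 single miRNAs tested below did not overlap either, after the TMM scaling explained there. Most of the sum was miR-142-3p (8.38 to 16.8 TPM), with a log2 fold change of -0.50 (unadjusted p = 0.0105 and adjusted p = 0.314 from edgeR). miR-223-3p and miR-150-5p went the other way, with 0.45 and 0.46 (adjusted p = 0.715 and 0.698 from edgeR). miR-142-5p, miR-451a and miR-144-3p had at most 0.927 TPM in any library and were not tested. The part of blood cell miRNAs in the values below was not tested. The 3 muscle miRNAs summed to 1.45 to 2.24 CPM over all libraries. The 4 stromal and smooth muscle miRNAs were at 115 to 132 CPM and the 2 neuronal miRNAs at 98.6 to 149 CPM, of which miR-9-5p had 123 CPM on average. The 2 endothelial miRNAs, miR-126-3p and miR-126-5p, were higher, at 3811 to 4341 CPM together. None of the listed miRNAs was at 0 in all libraries (0), and the liver list stood above each of the others in all 6 libraries.

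miR-122-5p was the most abundant miRNA in every library and took about the same large share in both groups. hsa-miR-122-5p had 2563025, 2870126 and 2757444 counts with hsa_circ_0098181 and 3504608, 2675313 and 2187931 counts with the control plasmid. These counts were 32.1%, 33.9% and 33.3% of all counts with hsa_circ_0098181 and 32.5%, 30.8% and 30.6% with the control plasmid. Overexpression replicate 2 had the highest share and control replicate 3 the lowest, and the groups overlapped, because control replicate 1 lay above overexpression replicate 1. The share was 1.78 percentage points higher in the overexpression group (p = 0.2 by a two-sided exact permutation test, whose smallest p with 3 samples a group is 0.1). The spread between replicates was far above counting error, with a chi-square per degree of freedom of 2958 with hsa_circ_0098181 and 4617 with the control plasmid for miR-122-5p against all other miRNAs.

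The next miRNA in every library was miR-16-5p, a member of the miR-15/16 family that restrains the cell cycle. miR-122-5p had 2.03, 2.30 and 2.27 times the counts of miR-16-5p with hsa_circ_0098181 and 2.32, 2.11 and 1.93 times with the control plasmid. It led in 6 of 6 libraries, the mean lead of 1.11 on the log2 scale was larger than its SD of 0.11, and the values of both groups overlapped (difference of the log2 ratio 0.056, p = 0.7 by the exact permutation test). By the mean over all libraries, miR-148a-3p with 56555 CPM, the oncogenic miR-21-5p with 54352 CPM, miR-192-5p with 31458 CPM and miR-25-3p with 29904 CPM followed, against 322041 CPM for miR-122-5p. The 10 most abundant miRNAs of a library took 72.6% to 74.6% of its counts. All miRNAs other than miR-122-5p shared 66.1% to 69.4%, which was 4956867 to 7281687 counts per library.

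miR-122-3p, the passenger strand, was a miRNA of middle abundance. hsa-miR-122-3p had 1604, 1448 and 1619 counts with hsa_circ_0098181 and 2210, 1613 and 1250 counts with the control plasmid. This was 201, 171 and 195 TPM with hsa_circ_0098181 and 205, 186 and 175 TPM with the control plasmid. Control replicate 1 had the highest level and overexpression replicate 2 the lowest, so that the control samples lay within the range of the overexpression samples or just above it. The group means were 189 ± 16.0 TPM with hsa_circ_0098181 and 189 ± 15.1 TPM with the control plasmid (SD, n = 3 each). Within a library it held place 119 to 124 by count, and place 121 by the mean over all libraries, among the 1366 miRNAs with a count in any sample.

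Its neighbours in this order were not separated from it. miR-95-3p (202 CPM on average) was above miR-122-3p in 4 of 6 libraries, and so was miR-100-5p (190 CPM), while miR-7-1-3p (188 CPM) and miR-3613-5p (188 CPM) were above it in 3 of 6. The mean log2 ratio of these 4 miRNAs to miR-122-3p was between -0.0090 and 0.098, below its SD over the 6 libraries in each case.

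The balance of both arms was among the most one-sided of the arm pairs compared below. For every count of miR-122-3p there were 1598, 1982 and 1703 counts of miR-122-5p with hsa_circ_0098181 and 1586, 1659 and 1750 with the control plasmid. Overexpression replicate 2 had the most one-sided ratio and control replicate 1 the least. As a share of the reads of both arms, miR-122-3p had 0.0625% (exact 95% interval 0.0595% to 0.0657%), 0.0504% (0.0479% to 0.0531%) and 0.0587% (0.0559% to 0.0616%) with hsa_circ_0098181. With the control plasmid it had 0.0630% (0.0604% to 0.0657%), 0.0603% (0.0574% to 0.0633%) and 0.0571% (0.0540% to 0.0604%). These intervals cover counting error only. Overexpression replicate 2 lay below the other 5 libraries with no overlap of its interval, and the chi-square per degree of freedom for the ratio between replicates was 18.5 with hsa_circ_0098181 and 3.94 with the control plasmid.

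The ratio does not depend on the size or the scaling of the library. On the log2 scale with 0.5 added to each count, the ratio of miR-122-3p to miR-122-5p was -10.78 ± 0.16 with hsa_circ_0098181 and -10.70 ± 0.071 with the control plasmid (SD, n = 3 each), which is -0.076 between the means (p = 0.6 by the exact permutation test). The ratio was compared in the same way for 140 pairs of arms that share a name stem and have at least 10 counts for both arms in at least 3 samples, by limma with Benjamini-Hochberg adjustment. The difference for miR-122 had a 95% confidence interval of -0.43 to 0.28 and an adjusted p of 0.878 from limma. Of the 140 pairs, 0 had an adjusted p under 0.05 (0%) and 20 an unadjusted p under 0.05 (14.3%), and miR-122 was not among these 20. Without overexpression replicate 2 the difference was 0.012, with the sign turned.

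By the mean log2 ratio of 3p to 5p over the 6 libraries, -10.74, miR-122 held place 2 of the 140 pairs from the side where 5p dominates. Only miR-196a, with -11.09, was more one-sided toward 5p, and miR-146a (-9.66) and miR-186 (-9.62) came next. 5p was the larger arm in 83 pairs and 3p in 57, and the median absolute log2 ratio was 3.62. Counted in both directions, miR-122 was at place 4. Since both arms needed at least 10 counts in at least 3 samples, pairs with a less abundant larger arm had less room for such a ratio. A further 698 pairs had too few counts to be compared, in 2 of these the ratio was lower than in miR-122, and in 8 it was larger in absolute size. Pairs whose arms carry different precursor numbers in their names, such as those of miR-16, were not formed. Whether both arms of a pair, such as miR-196a, come from the same precursors was not checked. Between replicates the miR-122 ratio had an SD within groups of 0.12 against a median of 0.25 over all pairs, and 15 pairs had a lower SD. Pairs with few counts carry more counting error, and the pairs were not matched for counts.

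The question of the series was which miRNAs differ when hsa_circ_0098181 is raised, and neither arm of miR-122 passed the test. Counts were scaled by TMM factors, which adjust each library for its composition, and compared by edgeR's quasi-likelihood test over 552 miRNAs with enough counts, both arms included. On this scale miR-122-5p was at 322481, 368220 and 344041 CPM with hsa_circ_0098181 and 323476, 298889 and 281569 CPM with the control plasmid. The upper library of the control group exceeded the lowest of the overexpression group by a small margin, and the other 2 control samples lay below all overexpression samples. This was a log2 fold change of 0.19 with a standard error of 0.066 and a 95% confidence interval of 0.053 to 0.34, or a fold of 1.14. The unadjusted p from edgeR was 0.0108, and the adjusted p from edgeR was 0.314. By the unadjusted p, 16 of the 552 miRNAs came before it.

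miR-122-3p was at 202, 186 and 202 CPM with hsa_circ_0098181 and 204, 180 and 161 CPM with the control plasmid on the same scale. Control replicate 1 was again the highest library and control replicate 3 the lowest. The log2 fold change of 0.11 had a standard error equal to it, 0.11, and an adjusted p of 0.721 by edgeR. Its 95% confidence interval reached from -0.13 to 0.35, which is a fold of 0.914 to 1.28. Of the 552 miRNAs, 0 had an adjusted p under 0.05 (0%) and 50 an unadjusted p under 0.05 (9.06%), of which miR-122-5p was 1. The log2 fold change was above 0 for 281 of the 552 (50.9%), and the median of all was 0.0038.

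The size of the difference depended on the scaling. When only the library size was used, miR-122-5p had a log2 fold change of 0.080 (adjusted p = 0.542 from edgeR) and miR-122-3p of 0.0034 (adjusted p = 0.986), and the median of all miRNAs moved to -0.11. Relative to that median, miR-122-5p stood 0.19 higher and miR-122-3p 0.12 higher, against 0.19 and 0.11 with TMM factors. When the TMM factors were computed without both arms, the log2 fold change of miR-122-5p was 0.20 (adjusted p = 0.312 from edgeR). Within the library, relative to miR-16-5p, the difference was 0.056 for miR-122-5p and -0.020 for miR-122-3p (exact permutation test, p = 0.7 and p = 0.9). Control replicate 3 moved the values too, since without it the log2 fold change was 0.13 for miR-122-5p (adjusted p = 0.123 from edgeR) and 0.014 for miR-122-3p (adjusted p = 0.96), and 56 of 565 miRNAs were called (9.91%), neither arm among them. The unadjusted interval of miR-122-5p lay above 0 in 8 of 10 other ways of processing and in 5 of 6 fits with a sample left out, the exception being that without overexpression replicate 2. Every count fit tried gave an adjusted p of at least 0.123 and at most 0.847 for miR-122-5p, and of at least 0.638 and at most 0.986 for miR-122-3p.

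The other liver-enriched miRNAs gave the background of the same cell type. Of the 5, 0 passed the test in either direction, 3 had a log2 fold change above 0 and 2 below it with TMM factors. miR-192-5p and miR-194-5p, products of shared clusters that p53 and hepatocyte factors control, had 0.15 and -0.036, and miR-215-5p, which has nearly the same sequence as miR-192-5p, had 0.21. miR-148a-3p, which represses DNMT1, had -0.11 (adjusted p = 0.617 from edgeR), and miR-885-5p had 0.10. Reads of miR-192-5p and miR-215-5p may have been split between them, since how such reads were assigned is not given in the sources used here. Without control replicate 3, miR-148a-3p was called at -0.21 (adjusted p = 0.00658 from edgeR), 1 of the 5, in a fit in which 56 of all 565 miRNAs were called (9.91%), and miR-192-5p was at 0.036. With the library size alone, miR-192-5p was at 0.042, miR-885-5p changed sign to -0.015, and without control replicate 1 it was at -0.051 and miR-194-5p at 0.015.

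Within the library, miR-122-5p was compared with the sum of these 5. The log2 ratio was 1.67, 1.83 and 1.82 with hsa_circ_0098181 and 1.56, 1.48 and 1.65 with the control plasmid. Every overexpression sample lay above every control sample, by 0.013 at the closest point, and the means differed by 0.21 (exact permutation test, p = 0.1, the smallest it can give here). TMM-scaled levels that do not overlap between the groups were found for 15.4% of the 552 single miRNAs, and this share was not computed for ratios. The list's sum is mostly miR-148a-3p, and with the geometric mean of the list in its place the difference was 0.13 (exact permutation test, p = 0.2).

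**Figure D1:**
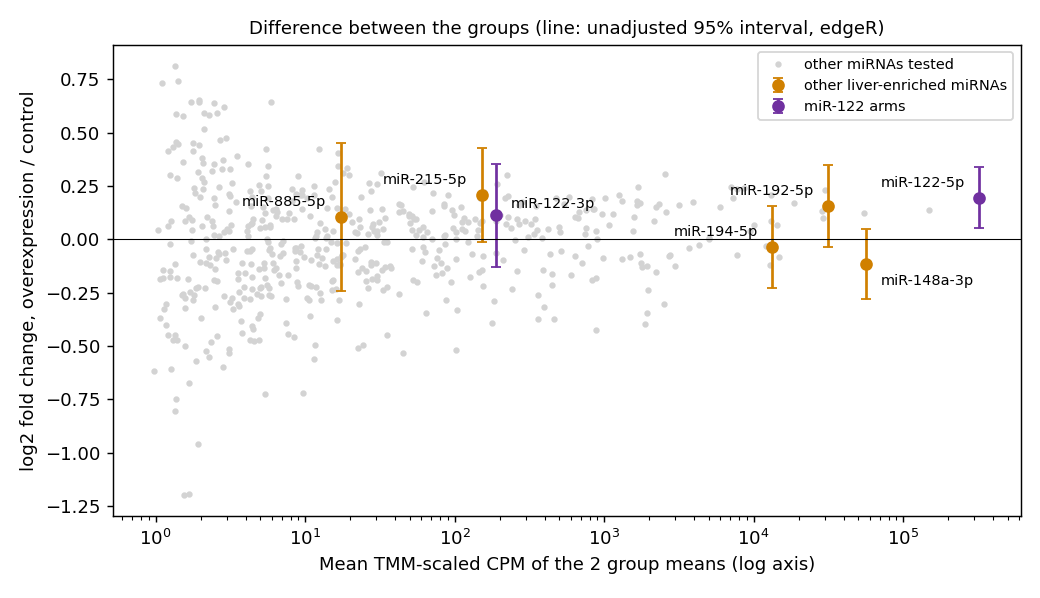
The log2 fold change between the groups against the mean TMM-scaled CPM (log axis) for the 552 miRNAs tested, with both miR-122 arms and the 5 other liver-enriched miRNAs marked with their unadjusted 95% intervals. miR-122-5p lies at the far right at 0.19, and 3 of the 5 liver-enriched miRNAs are above 0.

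The spread of the arms between replicates lay in the middle of that of other abundant miRNAs. After TMM scaling, the SD within groups on the log2 scale was 0.098 for miR-122-5p and 0.13 for miR-122-3p, against a median of 0.12 over the 152 miRNAs with at least 100 CPM, of which 62 had a lower SD than miR-122-5p and 85 a lower SD than miR-122-3p. With the library size alone it was 0.043 for miR-122-5p, and 8 of the 152 miRNAs had a lower SD.

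The arms did not follow each other most closely over the 6 libraries. The root mean square difference of the centred log2 levels between miR-122-5p and miR-122-3p was 0.11, which placed the passenger 48th of 151 candidates for miR-122-5p. The patterns most like that of miR-122-5p were those of miR-660-5p (0.030), miR-130b-3p (0.031), miR-126-3p (0.040), miR-30e-3p (0.048) and miR-218-5p (0.050), against a median of 0.15. For miR-122-3p they were miR-335-3p (0.029), miR-374b-5p (0.066), miR-26b-5p (0.069), miR-455-5p (0.077) and miR-26a-5p (0.083), and miR-122-5p was at place 22. These are descriptions of 6 libraries and were not tested. The scaling factor of a library cancels in the difference between miRNAs of that library.

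Counts were also assigned to a miRNA annotated on the opposite strand, and whether the counting used strand is not given in the sources used here. The annotated miR-3591-5p overlaps miR-122-3p by 20 bases on the other strand and resembles miR-122-5p, from which it differs at G2U, G3U, C11U and U17C (the base of miR-122-5p first, positions counted from 1 at the 5′ end) and by an additional base at its 3′ end. miR-3591-5p had 142, 177 and 171 counts with hsa_circ_0098181 and 240, 163 and 127 counts with the control plasmid. Its level was 17.8 to 20.9 TPM in the overexpression group and 17.8 to 22.3 TPM in the control group, so that the groups overlapped (log2 fold change 0.12, adjusted p = 0.784 from edgeR). The fold change was 0.0073 without control replicate 3, 0.24 without control replicate 1 and 0.0070 with the library size alone.

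For 100 counts of miR-122-3p there were 8.85, 12.2 and 10.6 counts of miR-3591-5p with hsa_circ_0098181 and 10.9, 10.1 and 10.2 with the control plasmid. For 1000000 counts of miR-122-5p there were 55.4, 61.7 and 62.0 with hsa_circ_0098181 and 68.5, 60.9 and 58.0 with the control plasmid. The groups overlapped in both ratios (exact permutation test, p = 0.8 and p = 0.6). Over the 7 shares and ratios tested by exact permutation, the Benjamini-Hochberg adjusted p was 0.7 to 0.9. The other product of that precursor, miR-3591-3p, which overlaps miR-122-5p by 21 bases on the other strand, had 1 count in all 6 libraries together. How reads of both genes were told apart is not given either. Whether the reads of miR-3591-5p come from the opposite strand, from miR-122-5p with differences or from miR-122-3p counted without strand was not tested. The deposited table holds no read sequences.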

How the data were processed

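Small RNA libraries of 6 samples of transfected Huh7 cells were compared, grouped by the sample labels. The authors deposited counts, the reads assigned to each mature miRNA in each sample without normalization, and TPM values, which equal the count for each 1000000 counts of the sample to within 0.00303. Per the labels, the processing used hg38 and TopHat2 2.0.9 and Bowtie. Trimming, the miRNA annotation and the assignment of reads with several matches are not given in the sources used here, and how they affect the counts of similar sequences was not tested.

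Counts were compared with edgeR 4.0.16 (R 4.3.3): filterByExpr (minimum count 10, minimum total 15), TMM factors, two-sided quasi-likelihood test on the group, Benjamini-Hochberg adjustment over all miRNAs tested, threshold 0.05. Arm ratios were fitted with limma 3.58.1, single ratios by exact permutation (scipy 1.17.1), and the hairpin was folded with RNAfold 2.7.2. The fits were checked on simulated data with larger fold changes than those of either arm. The check therefore does not show whether differences of this size would be found. Genes were taken from GENCODE release 29 (GRCh38). Alternatives included DESeq2 1.42.0, other factors and filters, limma on log2 CPM with 1 or 0.1 added, the replicate block and leaving out each sample; the ratio to miR-16-5p was added after seeing the data.

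The members and lists were chosen with earlier results of these data known. Named were both arms, the 5 next most abundant miRNAs, the lists, the neighbours by level, arm ratio (2 on each side) and pattern (5, at least 100 CPM), miRNAs sharing a seed, and the MIR3591 products.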

Additional observations from a re-analysis of the deposited data

How the results depend on the processing

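Both arms kept a log2 fold change above 0 and an adjusted p over 0.05 in all count fits tried. With 1 sample left out at a time, the log2 fold change was from 0.13 to 0.24 for miR-122-5p and from 0.014 to 0.19 for miR-122-3p, and over the 10 others from 0.080 to 0.20 and from 0.0034 to 0.12. Relative to miR-16-5p within the library, an alternative chosen after seeing the data, that of miR-122-3p turned to -0.020. miR-16-5p itself had 0.14 with TMM factors. By TMM scaling 0 miRNAs were called (50 had an unadjusted p under 0.05), by DESeq2 also 0 (41 unadjusted), 3 with the library size alone, 6 without a filter, and from 0 to 56 with a sample left out, where 56 was without control replicate 3. The number of the 5 liver-enriched miRNAs called was from 0 to 1 with a sample left out, the 1 being miR-148a-3p without control replicate 3. The unadjusted calls split into 24 higher against 26 lower by TMM scaling and into 1 against 69 by the library size. The arm ratio difference, -0.076, was from -0.14 to 0.012 with a sample left out and turned to 0.012 without overexpression replicate 2. miR-885-5p turned to -0.015 with the library size alone, and with a sample left out it was from -0.051 (control replicate 1) to 0.17, and miR-194-5p from -0.15 to 0.015 (control replicate 1), miR-192-5p from 0.036 (control replicate 3) to 0.21 (control replicate 1) and miR-3591-5p from 0.0073 (control replicate 3) to 0.24 (control replicate 1). The causes were not tested.

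Samples with the same number were not shown to be pairs. Their deviations from the group means correlated with r of -0.025, 0.15 and 0.24 across 152 miRNAs, which are not independent replicates, and not every sample correlated best with its own number. With the replicate block, miR-122-5p had a log2 fold change of 0.20 (adjusted p = 0.568 from edgeR) and miR-122-3p of 0.12, and 0 miRNAs and 0 arm pairs were called. The differences of the share (1.78 percentage points), the arm ratio (-0.076) and the ratio to the liver list (0.21) cannot change with this block. A mean of paired differences equals the difference of the group means. For the other named miRNAs, 139 values kept the sign and the call, 3 turned the sign and 2 came under the threshold. With 1250 to 2210 counts for miR-122-3p and 3 samples a group, changes inside its interval cannot be told from none.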
